A study of Zea mays with 18 samples.

Results

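Leaves dispose of superoxide and hydrogen peroxide through a small set of enzymes. Superoxide dismutases turn superoxide into hydrogen peroxide, catalases split hydrogen peroxide into water and oxygen, mainly in peroxisomes, and ascorbate peroxidases reduce it to water with ascorbate as the electron donor. In leaves the oxidation of glycolate and electron transport in chloroplasts and mitochondria are major sources of these oxidants, and heat stress is known to raise them. The 9 genes described here, 3 catalases, 3 ascorbate peroxidases and 3 superoxide dismutases, were picked by gene ID from the 39471 genes of the deposited table. All 9 were in the table and all 9 passed the filter on low values.

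The catalases were cat1 (GRMZM2G088212), cat2 (GRMZM2G090568) and cat3 (GRMZM2G079348). The ascorbate peroxidases were apx2 (GRMZM2G140667), GRMZM2G137839, which RefSeq lists as POD1, and GRMZM2G054300, which has an entry there but no short name. The superoxide dismutases were the copper/zinc enzymes sod2 (GRMZM2G025992) and sod9 (GRMZM2G058522, also named Sod4A) and the manganese enzyme sod3 (GRMZM2G059991), a mitochondrial protein. RefSeq held an entry for 8 of the 9 genes, all except cat3, whose name came with the gene ID. Enzyme family was assigned by gene ID, and no sequence was examined.

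The plants were An'nong 591, an F1 maize hybrid with CB25 as its maternal and CM1 as its paternal line. Control seedlings (CF1) grew at 28 °C by day and 23 °C by night under 16 h of light and 8 h of dark, and heat-treated seedlings (F1) were moved to 42 °C by day and 35 °C by night for 2 days. RNA came from the third leaf, with 3 libraries in each group, described as biological replicates. The series holds 18 samples in 6 groups, and the 12 libraries of the parental lines were not analysed here because their columns could not be matched to a label. All reads were counted on gene models of the inbred B73, which is neither parent of this hybrid.

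Counts on genes ranged from 12266758 to 14643512 per library. The 100 genes with the most counts took 38.2% to 41.3% of the counts in CF1 and 18.0% to 19.4% in F1. Library totals and TMM factors, which assume that most genes do not change, placed the groups differently. Expressed genes, those whose FPKM averaged 1 or more in either group, numbered 20622. Their log2 fold changes had a median of 0.054 with TMM factors and 0.85 with library totals, a shift of 0.80. FPKM, the fragments per kilobase of exon scaled to the size of the library, is given below as the authors deposited it and follows the library totals. Fold changes are from edgeR's quasi-likelihood test with TMM factors unless library totals are named, each with its standard error (SE). A gene was called, up- or down-regulated, when it differed 2-fold or more with a Benjamini-Hochberg adjusted p no higher than 0.05 over all expressed genes. All 8 markers of mesophyll and bundle sheath, the cell types that share C4 carbon fixation, were detected and down-regulated in F1. With library totals the mesophyll marker mdh6 (log2 fold change -0.81) and the bundle sheath marker me3 (-0.99) were not called. The summed FPKM of the mesophyll markers was 18651 to 21077 in the CF1 libraries against 5496 to 6640 in the F1 libraries. For the bundle sheath markers it was 10623 to 11793 against 2398 to 3167. The 2 endosperm zeins, which a leaf should lack, summed to 0 FPKM in every CF1 library and to at most 0.1 in F1. The part that these markers have in the results below was not tested, and in whole leaves fewer cells of a type and less RNA per cell cannot be told apart.

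Heat-treated leaves had far less cat3 mRNA and more mRNA of GRMZM2G054300, while cat2 had the highest mean FPKM of the set in both groups. With TMM factors, 3 of the 9 genes were called: GRMZM2G054300 was up-regulated, and cat3 and sod9 were down-regulated. Over all expressed genes, 24.1% were called up-regulated and 19.9% down-regulated, 44.0% in all, so 3 of 9 was no larger a share than the background. The 9 log2 fold changes had a median of -0.18, beside 0.054 for all expressed genes. Another 4 genes (cat1, POD1, cat2 and apx2) passed the adjusted p with a fold change under 2, as did 27.3% of all expressed genes. On the adjusted p alone, 7 of 9 genes and 71.3% of all expressed genes passed. With library totals the called genes were 4, of which cat1, POD1 and GRMZM2G054300 were higher and cat3 lower in F1, against a background of 45.0% higher and 9.21% lower, 54.2% in all. The calls for cat3 and GRMZM2G054300 were made under both scalings, which is 22.2% of the 9 genes, beside 33.3% of all expressed genes called in the same direction under both.

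**Figure D1:**
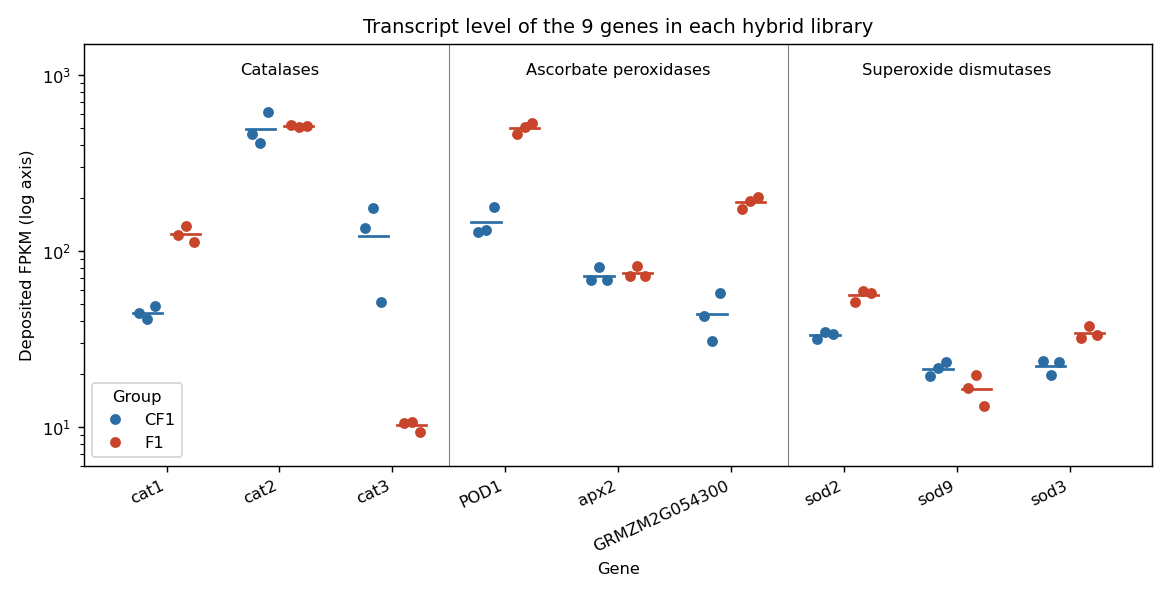
Deposited FPKM (log axis) of each of the 9 genes in the 3 CF1 (blue) and 3 F1 (red) libraries; points are libraries and short lines are group means. The cat3 points of CF1 run from 51.41 to 175.82 and those of F1 from 9.35 to 10.68, whereas those of cat2 and apx2 lie at similar heights in both groups.

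Catalase 3 showed the widest difference of the 9 genes. In maize this isozyme is known for a daily rhythm of its transcript in leaves. Its FPKM was 134.89, 175.82 and 51.41 in CF1 replicates 1, 2 and 3, and 10.50, 10.68 and 9.35 in the F1 replicates. Every F1 library was lower than every CF1 library by either scaling. The counts behind these values were 6659, 8049 and 2185 in CF1 and 530, 542 and 464 in F1, so neither group was near the detection limit. Its fitted log2 fold change was -4.35 (SE 0.38, edgeR adjusted p = 3.8e-06), a 20.5-fold lower level, and -3.57 (SE 0.37, edgeR adjusted p = 8.9e-06) with library totals. With each library left out in turn it lay between -4.71 and -3.99.

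The control libraries disagreed on cat3 more than on any other gene of the set. Replicates 2 and 3 of CF1, the extremes for cat3, also stood farthest apart over all genes, with a mean chi-square of 25.8 per gene between their counts against 9.57 to 11.9 for the other pairs of replicates. The highest CF1 library was 3.42-fold above the lowest, and the SD of log2 FPKM was 0.93 in CF1 and 0.10 in F1. Among 11579 expressed genes with a mean of at least 100 counts in CF1, 0.622% had a larger SD there. In F1 the corresponding share was 63.6% of 14860 genes. On deposited FPKM, replicate 3 of CF1, the lowest for cat3, was the highest CF1 library for cat1, cat2, POD1, GRMZM2G054300 and sod9. Replicate 2 was the highest for cat3, apx2 and sod2. With TMM scaling replicate 3 was the highest for sod2 (45.9, against 45.0 in replicate 2). 

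Catalase 2, known in maize as the main peroxisomal catalase of the photosynthetic leaf, had the highest mean of the 9 genes in both groups, although POD1 was above it in replicate 3 of F1. Its FPKM was 460.17, 408.39 and 612.80 in CF1 and 518.22, 507.52 and 510.62 in F1. These deposited F1 values lay inside the CF1 range. The TMM-scaled values did not overlap, with 530 to 835 in CF1 and 380 to 392 in F1. Its direction therefore rests on the scaling: the log2 fold change was -0.75 (SE 0.17, edgeR adjusted p = 0.0026) with TMM factors and 0.055 (SE 0.15, edgeR adjusted p = 0.75) with library totals. Neither value reached a fold change of 2. By its rank among the expressed genes within each library, which no scaling changes, cat2 stood at 104 to 130 in the CF1 libraries and at 73 to 76 in the F1 libraries. A rank also depends on how other genes change, so a gene can gain rank while its level falls. The mesophyll marker mdh6, lower in F1 under both scalings, ranked 48 to 62 in CF1 and 39 to 44 in F1. The rank of cat2 therefore does not settle its direction.

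Catalase 1, which in maize is known for its induction by abscisic acid and oxidants, had more mRNA in every F1 library. Its FPKM was 44.50, 40.81 and 48.30 in CF1 and 122.22, 138.59 and 112.03 in F1. The lowest F1 library stood above the highest CF1 library with either scaling. With TMM factors the log2 fold change was 0.68 (SE 0.12, edgeR adjusted p = 0.00067), a 1.60-fold higher level that fell short of the fold change threshold, and 1.48 (SE 0.12, edgeR adjusted p = 1.3e-06) with library totals, which passed it. Within the libraries, its rank among expressed genes was 1450 to 1581 in the control and 499 to 686 in the heat-treated group.

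Ratios between genes of one library do not depend on how libraries are scaled, so the make-up of each family could be compared directly. In CF1, cat1 made up 6.96%, 6.53% and 6.78% of the catalase FPKM, and in F1 18.8%, 21.1% and 17.7%. For cat3 the shares were 21.1%, 28.1% and 7.22% in CF1 and 1.61%, 1.63% and 1.48% in F1. The groups did not overlap for cat1 or cat3 (two-sided exact permutation over libraries, p = 0.1 for each, the lowest that 3 libraries against 3 allow). The share of cat2 was 74.4 ± 10.6% (SD, n = 3) in CF1 against 79.2 ± 1.79% (SD, n = 3) in F1, and its ranges overlapped (exact two-sided permutation test, p = 0.5). Its difference of 4.79 percentage points became 0.25 when replicate 2 of CF1 was left out and 10.6 when replicate 3 was. The ratio of cat1 to cat3 was 0.33, 0.23 and 0.94 in CF1 and 11.64, 12.98 and 11.98 in F1. In control leaves cat3 mRNA thus exceeded cat1 mRNA in every library, and after heat cat1 exceeded cat3 in every library. The difference in log2 ratio was 4.87 (SE 0.61).

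**Figure D2:**
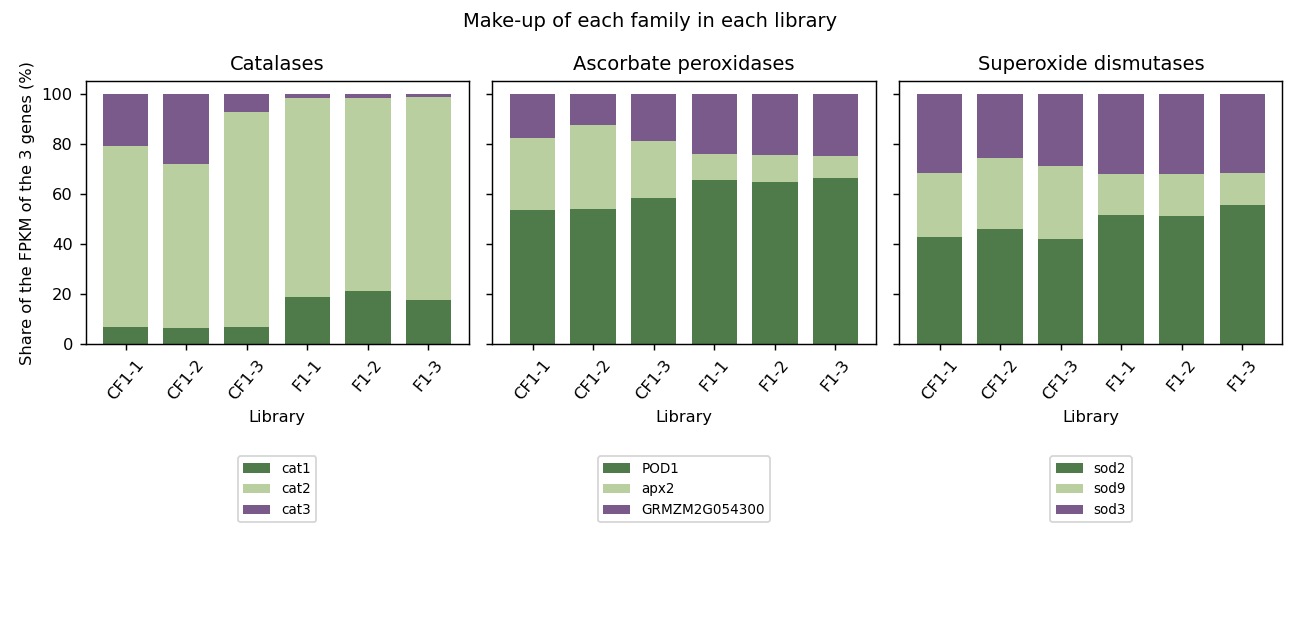
Share of each gene in the summed FPKM of the 3 genes of its family, one stacked bar per library. The cat3 part takes 7.22% to 28.1% of the CF1 bars and 1.48% to 1.63% of the F1 bars, and the apx2 part 22.5% to 33.2% and 8.90% to 10.5%.

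Of the ascorbate peroxidases, GRMZM2G054300 was the one called up-regulated. Its FPKM was 42.69, 30.87 and 57.82 in CF1 and 171.92, 191.60 and 201.94 in F1. All F1 libraries were above all CF1 libraries with either scaling. Its log2 fold change came to 1.30 (SE 0.21, edgeR adjusted p = 0.00032), a 2.46-fold higher level, and 2.11 (SE 0.20, edgeR adjusted p = 4.4e-06) with library totals. It lay between 1.09 and 1.58 when each library was left out in turn, the lowest being without replicate 2 of CF1.

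The gene listed as POD1 was the most abundant ascorbate peroxidase of the set in every library. Its FPKM was 127.16, 131.19 and 177.13 in CF1 and 463.95, 503.73 and 533.98 in F1. The groups were separated by either scaling, and its rank among expressed genes was 356 to 490 in the control libraries and 70 to 87 in the heat-treated ones, next to that of cat2. A log2 fold change of 0.98 (SE 0.16, edgeR adjusted p = 0.00031), a 1.98-fold higher level, lay just under the fold change threshold. It was 1.18 without replicate 3 of CF1, 1.04 without replicate 1 of F1 and 1.79 (SE 0.15, edgeR adjusted p = 1.5e-06) with library totals, each past the threshold. The call for POD1 thus depended on which library was left out.

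For apx2, the FPKM was 68.25, 80.39 and 68.16 in CF1 and 71.61, 81.91 and 71.90 in F1. These ranges overlapped. On the log2 scale the fold change was -0.74 (SE 0.11, edgeR adjusted p = 0.00017) with TMM factors, under the fold change threshold, and 0.058 (SE 0.11, edgeR adjusted p = 0.64) with library totals. Relative to the other ascorbate peroxidases it was lower in every F1 library. Its share of the family was 28.7%, 33.2% and 22.5% in CF1 and 10.1%, 10.5% and 8.90% in F1, a difference of -18.2 percentage points (two-sided exact permutation over libraries, p = 0.1, the lowest possible). POD1 stood at 1.63 to 2.60 times apx2 in the CF1 libraries and at 6.15 to 7.43 times apx2 in the F1 libraries. The ratio of POD1 to GRMZM2G054300 differed less, with 2.98 to 4.25 in the control and 2.63 to 2.70 in the heat-treated group, a difference in log2 ratio of -0.35 (SE 0.16).

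The superoxide dismutases of the set were the least abundant family, and sod9 was the one called. The FPKM of sod2 was 31.68, 34.66 and 33.69 in CF1 and 51.21, 59.26 and 57.73 in F1. Its log2 fold change was -0.049 (SE 0.10, edgeR adjusted p = 0.69) with TMM factors and 0.75 (SE 0.10, edgeR adjusted p = 6.1e-05) with library totals, where all expressed genes had medians of 0.054 and 0.85.

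The manganese enzyme gene sod3 was not called either. Its FPKM was 23.46, 19.57 and 23.28 in CF1 and 31.80, 37.28 and 33.01 in F1. Its log2 fold change came to -0.18 (SE 0.12, edgeR adjusted p = 0.21) with TMM factors and 0.62 (SE 0.12, edgeR adjusted p = 0.00069) with library totals. The ratio of sod2 to sod3 was 1.35 to 1.77 in the control and 1.59 to 1.75 in the heat-treated libraries, ranges that overlap. The difference in log2 ratio was 0.12 (SE 0.13, exact two-sided permutation test p = 0.5).

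In contrast, sod9 was down-regulated. Its FPKM was 19.31, 21.48 and 23.17 in CF1 and 16.47, 19.76 and 13.03 in F1. The deposited values overlapped, since replicate 2 of F1 lay above replicate 1 of CF1, and the TMM-scaled values did not, with 25.1, 27.9 and 31.6 in CF1 and 12.4, 14.8 and 10.01 in F1. The log2 fold change was -1.18 (SE 0.15, edgeR adjusted p = 6.7e-05), and with library totals it was -0.37 (SE 0.15, edgeR adjusted p = 0.042), under the fold change threshold. The ratio of sod2 to sod9 was 1.64, 1.61 and 1.45 in CF1 and 3.11, 3.00 and 4.43 in F1, so sod9 was lower relative to sod2 in every F1 library, whatever the scaling. The share of sod9 in its family was 27.7 ± 1.58% (SD, n = 3) in CF1 against 15.4 ± 2.44% (SD, n = 3) in F1.

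The fall of sod9 is uncertain in another respect. Sod4A and sod4 (GRMZM2G169890) are known as near-identical copies in maize, and how the aligner and the counter split reads between them was not examined here. The FPKM of sod4 was 11.18, 10.73 and 13.72 in CF1 and 47.23, 47.90 and 46.26 in F1, up-regulated with a log2 fold change of 1.19 (SE 0.12, edgeR adjusted p = 1.5e-05). When the counts of both copies were summed before the fit, which was decided with these values in view, there were 844, 828 and 879 counts in CF1 and 1769, 1893 and 1617 in F1. For that sum the log2 fold change was 0.11 (SE 0.12, edgeR adjusted p = 0.42), and the call was lost.

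**Figure D3:**
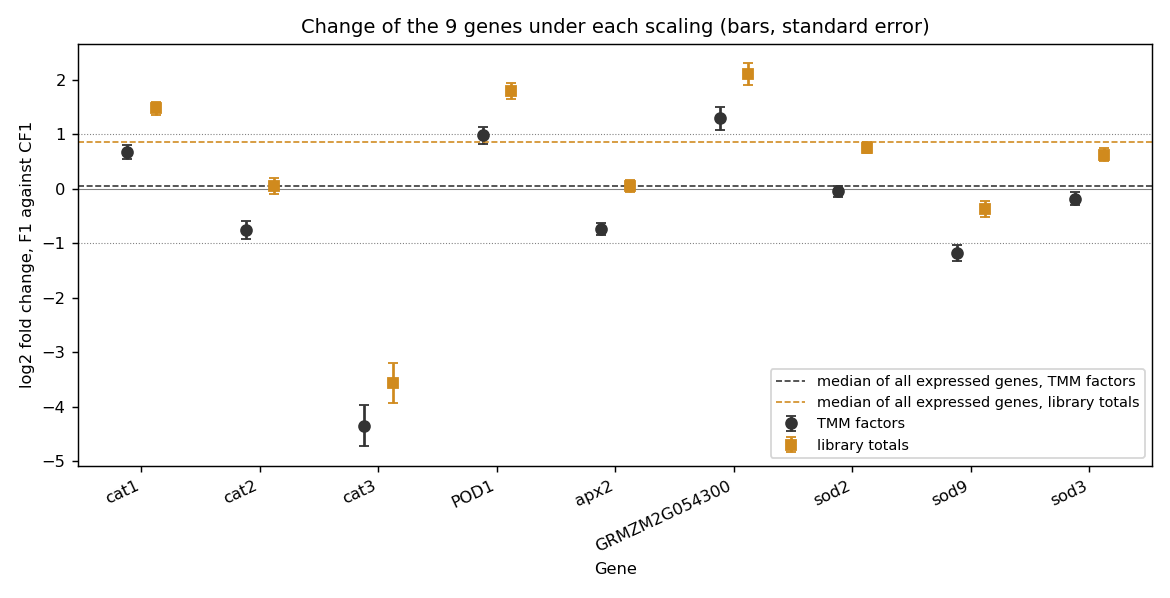
Log2 fold change (F1 against CF1) of the 9 genes from edgeR with TMM factors (circles) and with library totals (squares); bars are SEs, dashed lines are the medians of all expressed genes (0.054 and 0.85) and dotted lines mark a fold change of 2. All 9 genes shift upwards with library totals, and 5 keep their sign: cat1, POD1 and GRMZM2G054300 above 0, cat3 and sod9 below 0.

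Of the 9 genes, 5 had the same sign under both scalings, beside 76.1% of all expressed genes. The groups did not overlap, in the same direction on deposited and on TMM-scaled FPKM, for cat1, cat3, POD1 and GRMZM2G054300, 4 of 9 genes, and for 55.3% of all expressed genes. On the TMM-scaled values alone, 7 of the 9 genes did not overlap, 3 higher and 4 lower in F1, beside 75.2% of all expressed genes (39.1% higher and 36.1% lower). On the deposited values it was 6 genes, 5 higher and 1 lower, beside 80.5% (64.3% higher and 16.2% lower).

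In CF1 the order of the mean FPKM was cat2, POD1, cat3, apx2, cat1, GRMZM2G054300, sod2, sod3 and sod9. Neighbours overlapped between libraries for POD1 and cat3, cat3 and apx2, cat1 and GRMZM2G054300, GRMZM2G054300 and sod2, and sod3 and sod9. In F1 the order was cat2, POD1, GRMZM2G054300, cat1, apx2, sod2, sod3, sod9 and cat3. There, cat2 and POD1 were the one pair of neighbours that overlapped. Among all expressed genes cat3 ranked 309 to 1351 in the control libraries and 9555 to 10245 in the heat-treated ones, and GRMZM2G054300 ranked 1193 to 2213 and 308 to 380.

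Over the 9 pairs of genes within a family, the log2 ratio differed without overlap between the groups for 8 pairs (exact two-sided permutation test, p = 0.1, adjusted p = 0.11 over the 9 pairs). Among all pairs of expressed genes detected in every library, 73.5% did not overlap either, so separation alone is not particular to these families. The exception was sod2 with sod3. With 3 libraries in each group no pair could reach 0.05. The sizes of the differences ran from 0.12 (sod2 to sod3) to 4.87 (cat1 to cat3) on the log2 scale. The SD of the cat1 to cat3 log2 ratio was 1.05 in CF1. Sizes over all other pairs of genes were not computed, so these have no background beside them.

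Summed over the 3 genes of a family, catalase FPKM was 639.56, 625.02 and 712.51 in CF1 and 650.94, 656.79 and 632.00 in F1. That of the ascorbate peroxidases was 238.10, 242.45 and 303.11 in CF1 and 707.48, 777.24 and 807.82 in F1. That of the superoxide dismutases was 74.45, 75.71 and 80.14 in CF1 and 99.48, 116.30 and 103.77 in F1. On these deposited values the catalase sums overlapped between the groups, and the sums of the other families did not. Of single expressed genes, 80.5% did not overlap on deposited values. With TMM-scaled FPKM the ratio of the group means, F1 over CF1, was 0.56 for catalases, 1.68 for ascorbate peroxidases and 0.80 for superoxide dismutases. The TMM-scaled catalase sums were 871 ± 86.9 (SD, n = 3) in CF1 and 490 ± 3.56 in F1. Those of the superoxide dismutases were 101 ± 6.78 and 80.7 ± 6.09, so their direction turned with the scaling.

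The balance between the families was free of that scaling. Ascorbate peroxidase FPKM was 0.37, 0.39 and 0.43 of catalase FPKM in the CF1 libraries and 1.09, 1.18 and 1.28 in the F1 libraries. Per kilobase of exon, catalase transcripts thus outnumbered those of the ascorbate peroxidases in every control library and were outnumbered in every heat-treated library. The second part depends on dividing by exonic length. On raw counts the catalases stayed ahead in replicates 1 and 2 of F1 and fell behind in replicate 3. The ratio was 2.99-fold higher in F1 (difference in log2 ratio 1.58, SE 0.09; two-sided exact permutation over libraries, p = 0.1). Superoxide dismutase against catalase differed less, with 0.12, 0.12 and 0.11 in CF1 and 0.15, 0.18 and 0.16 in F1, a difference in log2 ratio of 0.50 (SE 0.07). Superoxide dismutase against ascorbate peroxidase was 0.31, 0.31 and 0.26 in CF1 and 0.14, 0.15 and 0.13 in F1, a difference in log2 ratio of -1.09 (SE 0.10). These sums cover the 9 genes and not every member of the families. The superoxide dismutase gene sod-1a, outside the set, had 201.43 to 245.84 FPKM in CF1 and 129.34 to 157.81 in F1. In every library that was above the sum of the 3 superoxide dismutases used here, so ratios with that family depend on the choice of genes.

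**Figure D4:**
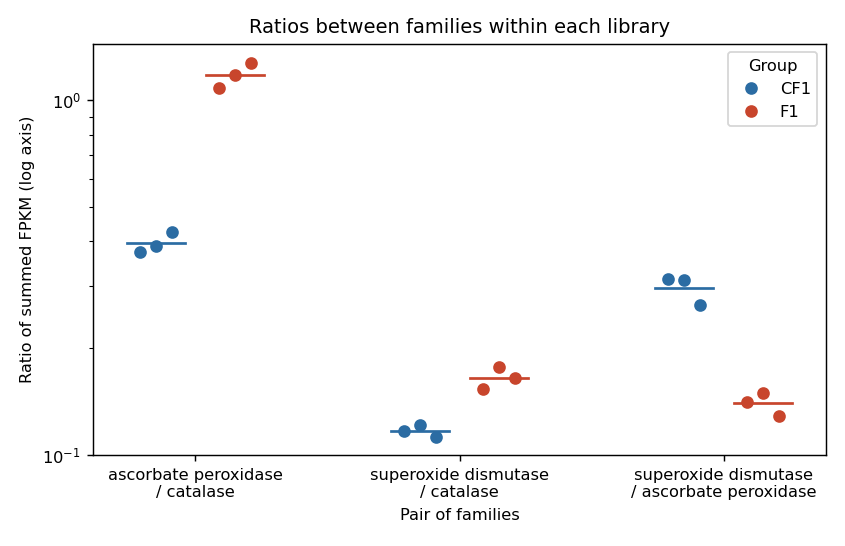
Ratio of summed FPKM (log axis) between families within each of the 3 CF1 (blue) and 3 F1 (red) libraries; lines are group means. The ratio of ascorbate peroxidase to catalase is 0.37 to 0.43 in the CF1 libraries and 1.09 to 1.28 in the F1 libraries.

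Other genes of peroxide and superoxide metabolism were taken by their RefSeq names, 22 in 6 lists. Of these, 18 passed the filter on low values, and 6 were up- and 6 down-regulated, beside 24.1% and 19.9% of all expressed genes. With library totals 9 were up- and 2 down-regulated, beside 45.0% and 9.21%. Their log2 fold changes had a median of 0.27.

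Outside the 9 genes, the table held 4 superoxide dismutases by name, of which 2 were up- and 1 down-regulated. The highest fold change was that of Sod3.2 (GRMZM2G124455), which shares the family of manganese enzymes with sod3. Its FPKM was 7.37, 8.68 and 8.98 in CF1 and 62.02, 70.49 and 68.10 in F1, a log2 fold change of 2.20 (SE 0.12, edgeR adjusted p = 2.1e-07). With the counts of sod3 and Sod3.2 summed, also decided with their values in view, the log2 fold change was 1.04 (SE 0.11, edgeR adjusted p = 1.5e-05), so the manganese genes together passed the threshold that sod3 alone did not. The most abundant of the 4 was sod-1a (GRMZM2G106928, also named sodC), with 201.43, 221.15 and 245.84 FPKM in CF1 and 157.81, 146.53 and 129.34 in F1. Its log2 fold change was -1.43 (SE 0.13, edgeR adjusted p = 5.5e-06), and -0.62 with library totals, which was not called. The iron enzyme gene fsd1 (GRMZM5G864424) had a log2 fold change of 0.59 (SE 0.17, edgeR adjusted p = 0.010), under the fold change threshold, and 1.39 with library totals, past it. With library totals this list had 3 genes up- and 0 down-regulated.

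Dehydroascorbate reductases regenerate the ascorbate that ascorbate peroxidases oxidize. Among 4 genes, 2 were up- and 1 down-regulated. The most abundant, dhar1 (GRMZM5G855672), had an FPKM of 103.81, 98.14 and 119.99 in CF1 and 390.63, 447.32 and 418.73 in F1, a log2 fold change of 1.16 (SE 0.13, edgeR adjusted p = 2.3e-05). The largest fold change in the list was that of dhar2 (GRMZM2G005710), 1.35 on the log2 scale (SE 0.34), on 8 to 59 counts per library. The down-regulated gene was dhar4 (GRMZM5G826194), with 57.97, 56.91 and 49.62 FPKM in CF1 and 43.55, 35.74 and 43.72 in F1 and a log2 fold change of -1.22 (SE 0.12), which was -0.42 and not called with library totals. For dhar3 (GRMZM2G035502) it was -0.39 (SE 0.12), under the fold change threshold, and 0.42 with library totals.

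Of 3 genes for the synthesis of ascorbate and glutathione, 1 was down-regulated. This was gsh2 (GRMZM2G155974), glutathione synthetase, with a log2 fold change of -1.27 (SE 0.13, edgeR adjusted p = 1.0e-05), -0.47 and not called with library totals. The gene for the first step of glutathione synthesis, gsh1 (GRMZM2G111579), had an FPKM of 12.86, 8.80 and 13.48 in CF1 and 26.50, 38.55 and 28.96 in F1. Its log2 fold change was 0.62 (SE 0.19), under the fold change threshold, and 1.42 with library totals, past it. That of VTC2 (GRMZM2G359397), a gene of ascorbate synthesis, was -0.75 (SE 0.21) and 0.053 with library totals.

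Among 4 sources of hydrogen peroxide or superoxide, 2 were down-regulated. Glycolate oxidase, which makes hydrogen peroxide in peroxisomes during photorespiration and so feeds the catalases, was represented by go1 (GRMZM2G129246). Its FPKM was 160.78, 144.61 and 183.18 in CF1 and 39.18, 35.41 and 46.09 in F1, a log2 fold change of -2.82 (SE 0.16, edgeR adjusted p = 2.3e-07) and of -2.02 with library totals. The NADPH oxidases of the plasma membrane, which make superoxide, differed in direction. The gene rbohB (GRMZM2G138152) had a log2 fold change of 0.64 (SE 0.11), under the fold change threshold, and 1.44 with library totals, past it. That of rbohC (GRMZM2G043435) was -0.043 (SE 0.11), with a sign that turned with library totals (0.75). That of rbohD (GRMZM2G441541) was -1.03 (SE 0.13, edgeR adjusted p = 6.0e-05), which fell short of the threshold without replicate 3 of CF1 (-0.91), without replicate 3 of F1 (-0.97) and with library totals (-0.23).

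Both alternative oxidase genes, whose mitochondrial products pass electrons to oxygen without forming superoxide, were up-regulated from levels near the detection limit. The FPKM of aox1 (GRMZM2G125669) was 0.08, 0.23 and 0.54 in CF1, from 2, 5 and 11 counts, and 10.98, 12.68 and 9.44 in F1, from 266, 309 and 225 counts. Its log2 fold change was 4.51 (SE 0.38, edgeR adjusted p = 3.4e-06), 5.36 without replicate 3 of CF1 and 2.78 with limma on log2(TMM-scaled FPKM + 1). That of aox3 (GRMZM2G074743) was 2.38 (SE 0.67, edgeR adjusted p = 0.0094), on 4, 0 and 5 counts in CF1 and 28, 44 and 20 in F1. It was 3.03 without replicate 3 of CF1 and 0.76, not called, with limma.

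Class III peroxidases are secreted enzymes that use hydrogen peroxide in the cell wall. Of 5 named genes, 1 passed the filter. This gene, PER42 (GRMZM2G126261), had an FPKM of 49.00, 60.77 and 27.05 in CF1 and 16.98, 14.80 and 23.32 in F1 and was down-regulated, with a log2 fold change of -2.10 (SE 0.27, edgeR adjusted p = 5.8e-05). The other 4 genes, PER1, PER2, PER66 and PER70, had at most 24 counts in any library.

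**Figure D5:**
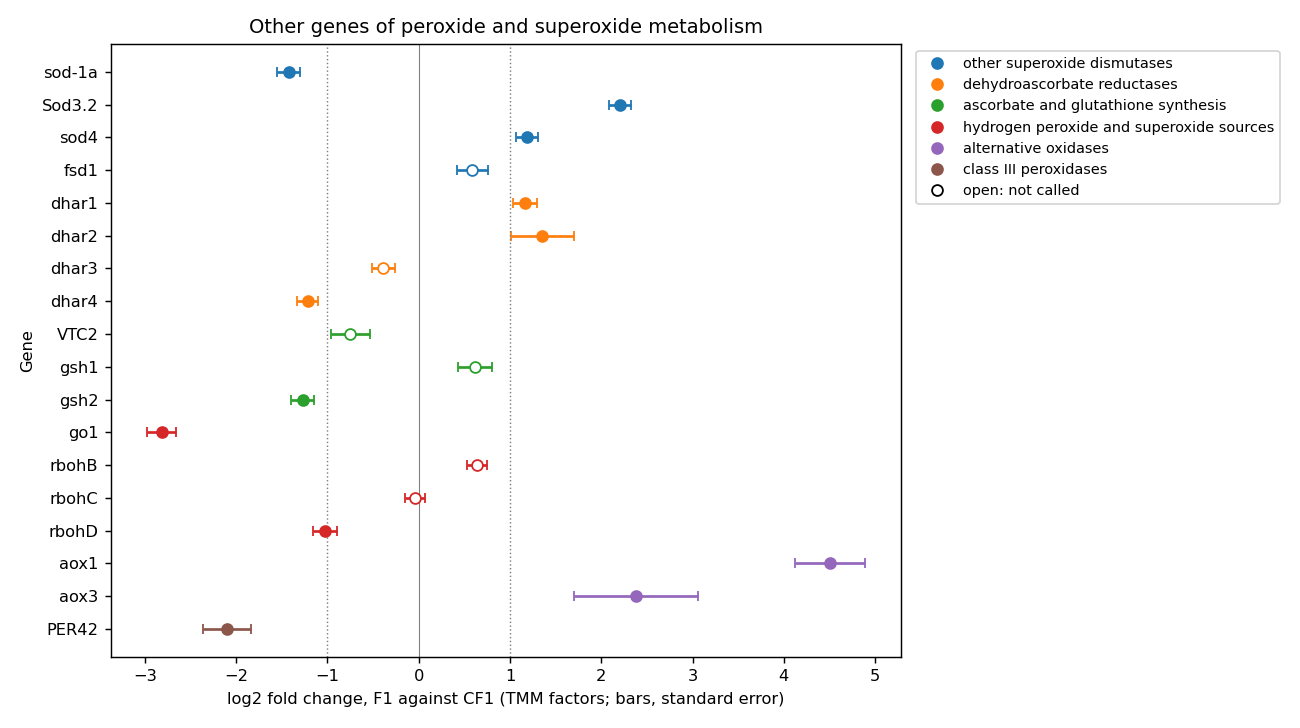
Log2 fold change (F1 against CF1, edgeR with TMM factors) of the 18 expressed genes of the other lists; bars are SEs, colours are lists, filled points were called and dotted lines mark a fold change of 2. The points run from -2.82 for go1 to 4.51 for aox1, with 6 called on each side.

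Patterns over the 6 libraries were compared by Pearson correlation of log2(TMM-scaled CPM + 1), CPM being counts scaled to library size. For POD1 the named gene with the second highest correlation was GRMZM2G029262 (r = 0.996) and the highest was GRMZM2G174807 (r = 0.997), which RefSeq also names PIP1-1, an aquaporin. The FPKM of GRMZM2G174807 was 146.03, 149.56 and 165.75 in CF1 and 377.26, 380.98 and 401.80 in F1. With TMM factors its log2 fold change was 0.53 (SE 0.12). For cat2 they were GRMZM2G703231 (r = 0.998) and cda2 (GRMZM2G008216, r = 0.997), and for sod2 GRMZM2G178261 (r = 0.978) and GRMZM2G043602 (r = 0.970). The levels of GRMZM2G703231 (2.87 to 6.74 FPKM over the 6 libraries) and GRMZM2G178261 (0.76 to 1.54) were low. A value above 0.95 was reached by 7.91% of expressed genes with POD1, 3.70% with cat2 and 0.0436% with sod2. The genes share their libraries and scaling, and r takes in the difference between the groups as well as the spread within them.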

How the data were processed

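Adapter, poly(N) and low-quality reads were removed by the authors, who used HISAT (HISAT2 2.0.1 in the submitters' notes) and the B73 assembly RefGen_v3 for alignment and counted them per gene with HTSeq 0.6.1. They deposited raw counts, not normalized, and FPKM values, which equal the counts divided by exonic length and 1 constant per library in 100% of values to within 0.011 FPKM or 0.1%. Library and read strand settings are not given in the sources used here.

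Of the per-sample columns, 24 carry names that match no sample label and were not used. The 6 hybrid libraries were compared with edgeR 4.0.16 (glmQLFit, glmQLFTest, TMM) in R 4.3.3 on the 20622 genes whose FPKM averaged 1 or more in either group. TMM factors ranged over 0.734 to 0.770 for CF1 and 1.30 to 1.33 for F1. Standard errors of edgeR fold changes are the size of the log2 fold change divided by the square root of F. Those of differences in log2 ratio come from the variance between the 3 libraries of each group, without a count model. The fit was tested on simulated data in which few genes changed, balanced in direction. That setting lacks the shift in library make-up seen here, so it does not test the choice of scaling. Alternatives were library totals, median-of-ratios factors, DESeq2 1.42.0, limma 3.58.1 on log2(TMM-scaled FPKM + 1 or + 0.1), no filter, the replicate number as a block, and each library left out.

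The members and lists were chosen with earlier results of these data known. The text names all 9 members, in each list the genes with the largest and smallest fold change and the highest mean FPKM, and the 2 named genes most correlated with the most abundant member of each family. Other list genes were named after their values were seen. The lists had been planned by enzyme description, but RefSeq (assembly Zm-B73-REFERENCE-NAM-5.0, no coordinates taken, 18907 genes matched) gave short names, so they were remade by name. Markers were fixed by gene ID. Counts limit precision, and counting error is included in the standard errors of the fold changes.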

Additional observations from a re-analysis of the deposited data

How the results depend on the processing

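The number of genes called over the whole table was 9065, with 8807 to 9112 when each library was left out in turn. It was 14705 with the adjusted p alone, a setting chosen after seeing the data. The members called were 3, with 3 to 4 when each library was left out and 7 with the adjusted p alone. The other list genes called were 12, with 11 to 12 when each library was left out. Library totals turned the direction of cat2 (0.055), apx2 (0.058), sod2 (0.75), sod3 (0.62), dhar3 (0.42), VTC2 (0.053) and rbohC (0.75), since they move the median of all genes by 0.80. With each library left out, the log2 fold change of sod2 ran from -0.095 to 0.011 (the latter without replicate 1 of F1), and that of rbohC from -0.12 to 0.011, above 0 when replicate 2 of CF1 (0.011) or replicate 2 of F1 (0.0039) was missing. Summing the counts of sod9 with those of its copy sod4 turned the direction (0.11). With sod3 and Sod3.2, another manganese gene, the sum gave 1.04, a value of both genes and not of sod3 alone. Leaving out each library moved the F1 minus CF1 difference of a share between 11.5 and 13.2 percentage points for cat1, 0.25 and 10.6 for cat2, -23.0 and -12.6 for cat3, 9.22 and 11.7 for POD1, -21.1 and -15.7 for apx2, 6.15 and 9.32 for GRMZM2G054300, 7.76 and 10.4 for sod2, -13.3 and -11.0 for sod9, and 1.66 and 4.50 for sod3. From raw counts in place of FPKM, which weights longer genes more, the difference was 15.1 for cat1, 10.9 for cat2 and -26.0 for cat3, and between -18.7 and 11.6 for the other 6 genes. With limma and a pseudocount of 1, dhar2 (0.69), aox3 (0.76) and rbohD (-0.97) were not called, and aox1 was 2.78. Deviations of same-numbered libraries from their group means had an r of 0.051, -0.016 and 0.029 for replicates 1, 2 and 3. Replicates 1 and 3 of CF1 correlated best with the F1 library of the same number, and replicate 2 of CF1 with replicate 3 of F1 (0.018). Values this small, from 3 libraries in each group, cannot tell whether the numbers pair the libraries. With the replicate number as a block, 8948 genes and 4 members were called, POD1 (1.00) having reached the fold change threshold.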
